A study of Mus musculus with 10 samples.

Results

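The cytosolic glutathione S-transferases are described here through 10 genes, 4 of class alpha (Gsta1, Gsta2, Gsta3 and Gsta4), 4 of class mu (Gstm1, Gstm2, Gstm3 and Gstm4), 1 of class pi (Gstp1) and 1 of class theta (Gstt1). The genes were taken by name from the family, and all 10 were found among the 27179 genes of the count table and among the 15226 genes with enough counts to be tested. Total RNA came from frozen livers of male mice of strain C57BL/6, all with the floxed genotype Lpcat3f/f. The 5 control mice carried the floxed alleles by themselves, and the 5 LKO mice (Lpcat3f/f Albumin-Cre) also carried Cre recombinase under the albumin promoter, which is active in hepatocytes and leaves the gene in other liver cells. Every mouse had eaten a diet that produces nonalcoholic steatohepatitis for 12 weeks, so there is no group on a normal diet. The age of the mice was not in the labels. The comparison asks how the loss of Lpcat3, a membrane phospholipid acyltransferase, from hepatocytes alters the steatohepatitic liver.

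Glutathione S-transferases join the tripeptide glutathione to electrophilic compounds, which include drugs, carcinogens and the aldehydes left by lipid peroxidation. The conjugates are pumped out of the cell and trimmed to mercapturic acids. Hepatocytes hold large amounts of these enzymes, and the transcription factor NRF2 and the nuclear receptors CAR and PXR are known inducers of several alpha and mu genes.

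Several of the genes have near-identical copies, and a count for such a gene depends on how reads that match both copies were handled. The stretches below show this for 3 pairs. Each gives 60 coding bases of the principal GENCODE transcript (mouse, GRCm38), taken where the pair first differs most, and capitals mark the bases that differ within a pair. The Gstp1 and Gstp2 stretches are coding bases 1 to 60:
Gstp1: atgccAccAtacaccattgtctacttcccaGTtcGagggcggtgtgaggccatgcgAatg
Gstp2: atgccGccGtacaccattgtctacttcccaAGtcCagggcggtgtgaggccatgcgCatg
The stretches of Gsta1 and the predicted gene Gm3776 also span coding bases 1 to 60:
Gsta1: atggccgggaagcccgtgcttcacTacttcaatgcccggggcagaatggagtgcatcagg
Gm3776: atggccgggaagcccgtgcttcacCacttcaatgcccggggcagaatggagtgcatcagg
Those of the neighbours Gstm1 and Gstm3 are coding bases 595 to 654:
Gstm1: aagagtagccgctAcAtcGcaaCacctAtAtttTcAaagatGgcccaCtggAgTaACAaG
Gstm3: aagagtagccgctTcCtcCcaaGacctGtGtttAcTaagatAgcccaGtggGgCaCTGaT

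Over the whole coding sequence, Gsta1 and Gm3776 differed at 2 of 672 bases, Gstp1 and Gstp2 at 12 of 633, and Gstm1 and Gstm3 at 69 of 657. Reads were 101 bases long, so the share of 101-base windows of a transcript that also occur in a transcript of another gene was counted. It was 81.7% for Gsta1, 52.6% for Gstp1 and 34.8% for Gsta2, against 13.5% for Gstm3, 7.4% for Gstm1 and 0.519% for Gstm2. For Gsta3, Gsta4, Gstm4 and Gstt1 it was 0%. The copies were counted in step with each other. Gm3776 had from 0.853 to 1.008 times the count of Gsta1 over the 10 libraries, while the Gsta1 count itself ran from 74 to 2524. Gstp2 had 0.841 to 0.867 times the count of Gstp1, and the processed copy Gstp-ps 0.477 to 0.527 times. Gstp3, a pi gene with 71.6% coding identity to Gstp1, had 0.0327 to 0.179 times. Values of Gsta1 and Gstp1 are therefore best read as those of the copies together, and they are not separate evidence from Gm3776, Gstp2 and Gstp-ps.

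**Figure D1:**
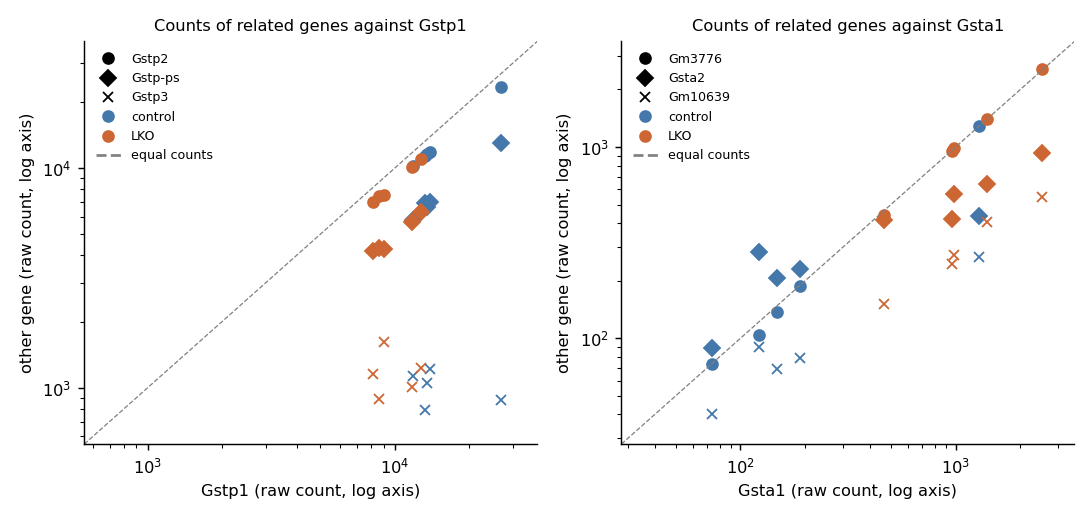
Raw counts of related genes against Gstp1 (left) and Gsta1 (right), 1 point per library, on log axes with a dashed line of equal counts. Gstp2 and Gstp-ps run parallel to Gstp1 and Gm3776 lies on the line with Gsta1, while Gstp3, Gsta2 and Gm10639 leave a fixed ratio.

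Promoter windows, from 250 bases before to 50 after the start, were found in RefSeq (GRCm38.p6) for 9 of the 10 genes (not Gsta4), in 11 windows. They were searched on both strands for TGACNNNGC, the core of the antioxidant response element bound by NRF2, and for TGAGTCA, the AP-1 site, where a match of TGAGTCA on the opposite strand can overlap one of TGACNNNGC. The first occurs in 12.4% and the second in 5.2% of all 32851 windows. Of the 9 genes, Gsta3 held the first and Gstp1 the second, as did its copy Gstp2, and these matches are shown with capitals for the motif. The stretches lie at chr1:21240447-21240489 (plus strand) for Gsta3, chr19:4037963-4038003 (minus strand) for Gstp1 and chr19:4042287-4042327 (minus strand) for Gstp2:
Gsta3: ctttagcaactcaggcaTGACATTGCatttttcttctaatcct
Gstp1: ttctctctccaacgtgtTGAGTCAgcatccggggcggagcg
Gstp2: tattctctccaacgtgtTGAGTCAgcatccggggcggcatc
The motif begins 121, 74 and 89 bases before the start. Among the relatives, Gstm5 held both motifs and Gstm7 the first. The windows of Gstm1, Gstm2, Gstm3, Gstm4, Gsta1, Gsta2 and Gstt1 held neither set of letters.

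Library totals ran from 26914124 counts in control 4 up to 46727182 in control 5, and the 10 genes made up 0.129% (control 5) to 0.324% (LKO 1) of them. Values below are in CPM, a gene's counts relative to the TMM-scaled total of its library, with means ± SD over 5 mice. Lpcat3 checked the labels, with 94.1 to 123.9 CPM in controls and 25.5 to 38.5 CPM in LKO (log2 fold change -1.79, SE 0.12, edgeR adjusted p = 0.000151). Hepatocyte markers summed to 66790 to 123600 CPM in every library. Control 4 stood apart from the other controls, as its values below show. For 7 of the 10 genes it lay inside the range of the LKO libraries, against 1 to 3 genes for the other controls. Control 4 is thus singled out by the same values that are compared. Results given below without it are descriptive and not separate support. Control 5 was the lowest control for 9 of the 10 genes. Without control 5 the log2 fold changes of the 4 mu genes, Gsta1, Gsta2 and Gsta4 were nearer to 0. That of Gstm3 was 1.62 against 1.84 with all libraries, and that of Gstm1 0.51 against 0.66. Gstp1 moved farther from 0, to -1.03 from -0.89. The p-values measure only the spread between these 5 and 5 samples.

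Levels can be compared between genes only per transcript length. In control liver, Gstp1 (642 ± 339 CPM per kb), Gstm1 (570 ± 196) and Gsta3 (529 ± 204) were the most abundant by their own rows, and their order lies within the spread. The place of Gstp1 depends on how shared reads were handled. Gstp1, Gstp2 and Gstp-ps together had 1628 ± 849.6 CPM per kb in controls, with a lowest library (998.5) above the highest of Gstm1 (809). If a read was counted for each copy it matches, this sum counts it more than once, and the sources do not say. Gstt1 followed at 82.2 ± 21.2 CPM per kb, Gstm3 at 50.5 ± 43.96, Gstm2 at 47.0 ± 22.9 and Gsta4 at 34.5 ± 12.3. Gsta1, Gsta2 and Gstm4 were lowest, at 13.6 ± 19.0, 9.6 ± 5.11 and 9.46 ± 2.89 CPM per kb. The ranges of neighbours in this order overlapped except between Gsta3 and Gstt1, whose ranges were 345 to 806 and 55.7 to 107 CPM per kb.

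In LKO liver the order differed. Gstm1 came first at 900.2 ± 158 CPM per kb, and its lowest library (666) lay just above the highest of Gsta3 (660.3), which averaged 530.2 ± 157. Gstp1 averaged 346 ± 85.0 CPM per kb, and its range overlapped that of Gsta3. With its copies, and the same limit on the sum, it had 872 ± 214 CPM per kb. The range of 679.5 to 1127 overlapped that of Gstm1 (666 to 1113). Gstm3 was next at 181 ± 29.0 CPM per kb, its range of 144 to 222 clear of Gstp1 above it and of Gstm2 (76.4 to 105.7) below it. Gstm2, Gstt1, Gsta4, Gsta1 and Gsta2 followed at means of 90.5, 85.7, 46.4, 39.5 and 18.9 CPM per kb, each overlapping its neighbours. Gstm4 was last at 14.4 ± 3.52 CPM per kb.

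None of the 10 genes passed the test between genotypes over all genes, where 0.0657% of genes did (10 of 15226; quasi-likelihood test of edgeR, adjusted p under 0.05 after Benjamini-Hochberg). Gstm1, Gstm2, Gstm3, Gstm4 and Gsta2 (5 of 10) had an unadjusted p under 0.05 with a higher level in LKO, against 12.8% of all genes. Gstp1 (1 of 10) had one with a lower level, against 9.5%. Other tools called some of them. DESeq2 called Gstm2, Gstm3 and Gstp1 (3 of 10, against 7.79% of all genes), and limma voom with sample weights called Gsta1, Gsta2 and all 4 mu genes, each with a higher level in LKO (6 of 10, against 10% of all genes). The median log2 fold change of the 10 genes was 0.63, beside -0.00 over all genes.

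**Figure D2:**
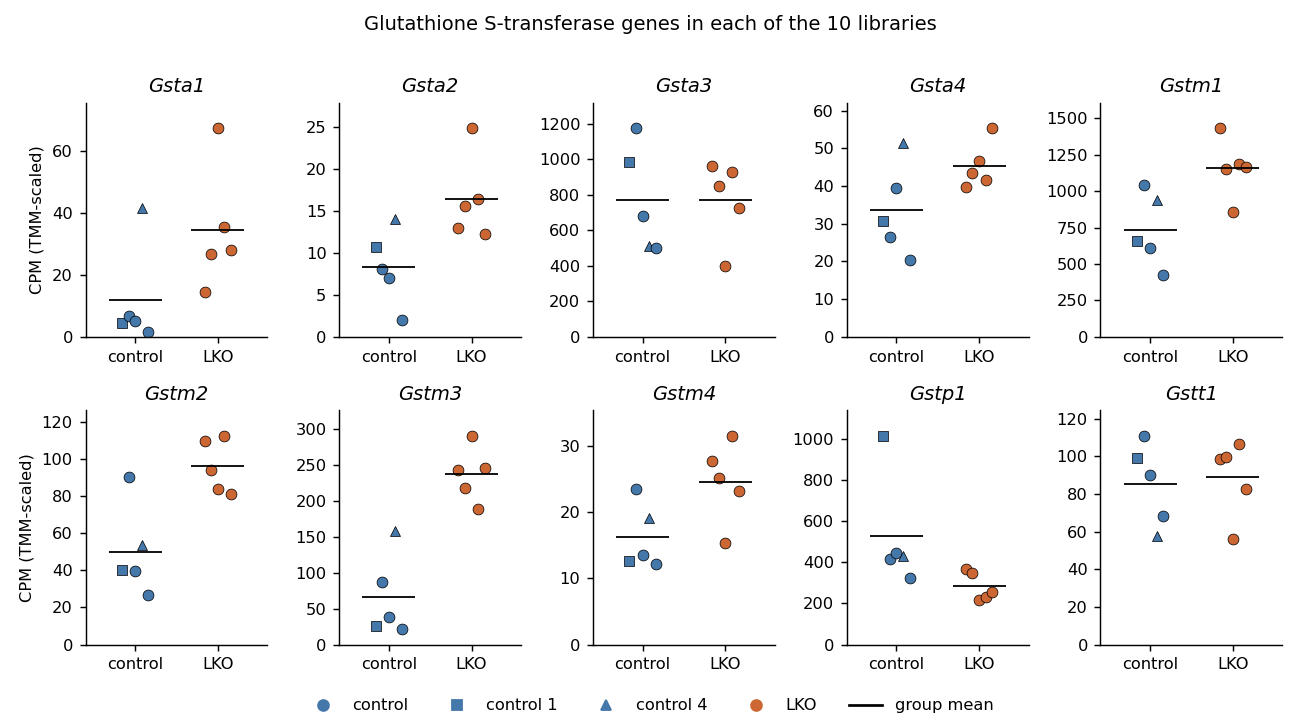
Level of each gene in CPM (vertical axis, from 0) in the 5 control and 5 LKO libraries, with the group mean as a line; control 1 is a square and control 4 a triangle. Gstm3 alone has no overlap between groups, control 4 is the highest control for Gsta1 and Gstm3, and control 1 stands far above all other libraries for Gstp1.

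All 4 mu genes had higher means in LKO than in control liver. Gstm3, an inducible mu transferase, had 25.6, 87.6, 38.1, 157.9 and 21.6 CPM in controls 1 to 5. In LKO 1 to 5 it had 243.7, 218.3, 291.1, 188.4 and 246.4 CPM. All LKO libraries were above all controls, a separation found for 1.72% of genes in this direction, and control 4 came closest. The group means were 66.2 ± 57.6 and 238 ± 38.0 CPM, 3.59-fold apart (log2 fold change 1.84, SE 0.49, edgeR adjusted p = 0.106). Without control 4 the log2 fold change was 2.46 and the gene passed (edgeR adjusted p = 0.00683), and its adjusted p ran from 0.00683 to 0.878 over the 20 alternative fits.

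Gstm1, the most abundant mu gene, had 659.9, 1043, 607.2, 938.9 and 423.4 CPM in the controls. In LKO the values were 1434, 1155, 859, 1185 and 1169 CPM. Controls 2 and 4 reached into the LKO range, and the other controls lay below it. The means were 734 ± 253 and 1160 ± 204 CPM (log2 fold change 0.66, SE 0.24, edgeR adjusted p = 0.156). Gstm2 had 39.98, 89.99, 39.75, 53.7 and 26.6 CPM in the controls and 109.6, 93.9, 84.0, 112.5 and 81.3 CPM in LKO. Only control 2 overlapped the LKO libraries, and control 4 did not. The log2 fold change of Gstm2 was 0.95 (SE 0.27, edgeR adjusted p = 0.12). Gstm4, the least abundant, had 12.7, 23.5, 13.5, 19.1 and 12.1 CPM in the controls against 27.7, 25.0, 15.4, 31.5 and 23.2 CPM in LKO. LKO 3 was its lowest LKO library, below controls 2 and 4, and the log2 fold change was 0.61 (SE 0.22, edgeR adjusted p = 0.16).

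These 4 genes lie next to each other on chromosome 3, in the order Gstm3, Gstm2, Gstm1, Gstm4. On the Gstm3 side come Gstm6, Gstm7 and Gstm5, with log2 fold changes of 0.21, -0.10 and 0.39 (edgeR adjusted p = 0.45, 0.68 and 0.202). That of Gstm7 ran from -0.19 to 0.14 over the 20 alternative fits. The ratio of Gstm4 to Gstm1 counts was 0.0192 to 0.0286 in controls and 0.0179 to 0.0266 in LKO, and that of Gstm2 to Gstm1 was 0.0572 to 0.0863 and 0.0696 to 0.0977. The ratio of Gstm3 to Gstm1 varied more. It was 0.0388 to 0.084 in controls 1, 2, 3 and 5, 0.168 in control 4 and 0.159 to 0.339 in LKO, with the highest value in LKO 3. Gstm3 thus differed from its neighbours in proportion as well as in level, in control 4 as in the LKO libraries.

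Of the alpha class, Gsta1 and Gsta2 encode inducible transferases that also reduce lipid peroxides. Gsta1 had 4.61, 6.64, 4.99, 41.5 and 1.72 CPM in the controls and 14.6, 26.8, 67.5, 35.7 and 28.1 CPM in LKO. Control 4 was above all LKO libraries but LKO 3, and the other 4 controls were below all of them. The log2 fold change was 1.54 (SE 0.74, edgeR adjusted p = 0.243) with all libraries. It was 2.96 without control 4, where the gene passed (edgeR adjusted p = 0.00777). Gsta2 had 10.7, 8.04, 6.95, 14.0 and 2.07 CPM in the controls and 13.0, 15.6, 24.9, 16.4 and 12.3 CPM in LKO. Here too control 4 alone overlapped the LKO range (log2 fold change 0.98, SE 0.39, edgeR adjusted p = 0.181).

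Gsta2 had a higher count than Gsta1 in controls 1, 2, 3 and 5 and a lower one in control 4 and all LKO libraries. The ratio of Gsta2 to Gsta1 was 1.2 to 2.33 in the former, 0.337 in control 4 and 0.368 to 0.89 in LKO. Gm10639, which differs from Gsta2 at 10 of 669 coding bases, had 3.61 ± 2.94 and 8.88 ± 3.8 CPM (log2 fold change 1.31, edgeR adjusted p = 0.168). Without control 4 its log2 fold change was 1.93 and it passed (edgeR adjusted p = 0.0138).

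Gsta4, whose enzyme conjugates hydroxynonenal from lipid peroxidation, had 30.8, 26.6, 39.5, 51.3 and 20.4 CPM in the controls and 39.6, 43.4, 46.7, 41.5 and 55.4 CPM in LKO. Control 4 lay inside the LKO range, control 3 just below its lowest library, and LKO 5 was highest of all. Its log2 fold change was 0.43 (SE 0.21, edgeR adjusted p = 0.256), and without control 4 it was 0.63 and passed (edgeR adjusted p = 0.0373). Gsta3, the major alpha transcript and the enzyme that protects mouse liver from aflatoxin, ranged from 503 to 1175 CPM in controls and from 398 to 962 CPM in LKO. The means of 770 ± 298 and 773 ± 229 CPM gave a log2 fold change of 0.00 (SE 0.29, edgeR adjusted p = 0.995), and its sign changed with the scaling and the libraries used. LKO 3, the highest library for Gsta1 and Gsta2, was the lowest for Gsta3.

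Gstp1, the pi transferase that is abundant in male mouse liver, went the other way. It had 1018, 415, 445, 433 and 324 CPM in the controls and 367, 350.1, 218.5, 229.3 and 253.5 CPM in LKO. Control 1 exceeded every other library by more than 2-fold, and control 5 overlapped the LKO range. The means were 527 ± 278 and 284 ± 69.8 CPM (log2 fold change -0.89, SE 0.30, edgeR adjusted p = 0.142). Without control 1 the log2 fold change was -0.51 (edgeR adjusted p = 0.253). Gstp2 and Gstp-ps, whose transcripts share 101-base windows with it, had log2 fold changes of -0.90 and -0.91. Gstp3, whose transcript shares no 101-base window with them, had 32.4 ± 5.21 and 32.5 ± 5.53 CPM, and control 1 was at 33.3 CPM. The high value of control 1 was thus seen in Gstp1, Gstp2 and Gstp-ps and not in Gstp3.

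Gstt1, the theta transferase that acts on small halogenated compounds, had 57.7 (control 4) to 111 CPM in controls and 56.0 (LKO 3) to 107 CPM in LKO. The groups overlapped throughout (log2 fold change 0.06, SE 0.21, edgeR adjusted p = 0.882), and the sign changed without control 4, control 5 or LKO 4. Its neighbours on chromosome 10 had log2 fold changes of 0.58 (Gstt2, edgeR adjusted p = 0.163) and -0.30 (Gstt3, edgeR adjusted p = 0.599).

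**Figure D3:**
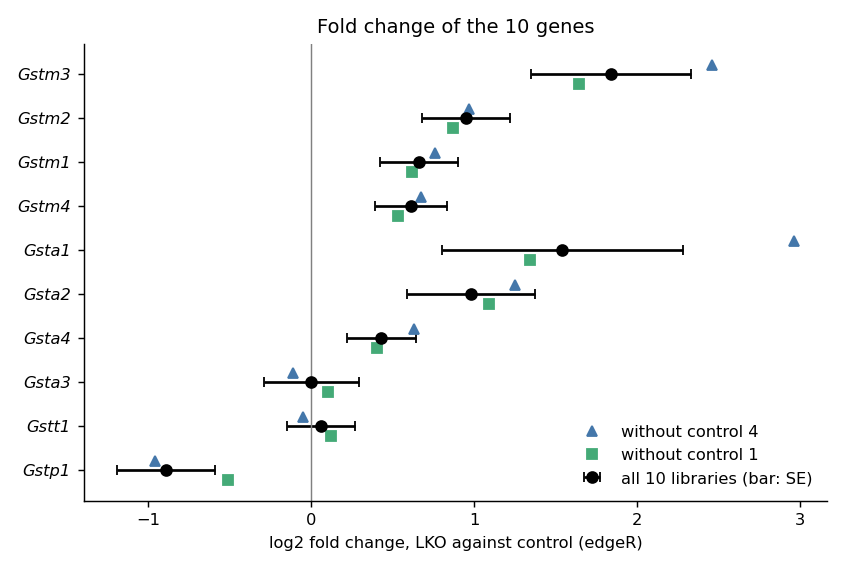
Log2 fold change of each gene, LKO against control (edgeR), with all 10 libraries (circle, bar 1 SE), without control 4 (triangle) and without control 1 (square). The 4 mu genes and Gsta1, Gsta2 and Gsta4 lie above 0 in each fit and Gstp1 below; leaving out control 4 moves Gsta1 and Gstm3 most, and leaving out control 1 moves Gstp1 most.

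The make-up of the family by class differed between the genotypes in these libraries, while its sum overlapped. The 10 genes summed to 1402 to 2986 CPM in controls and 2061 to 3310 CPM in LKO. The mu genes summed to 484 to 1244 CPM in controls and 1249 to 1815 CPM in LKO, where control 2 lay just below LKO 3. As a share of the 10 genes, mu held 37.7% ± 9.51 in controls and 55.4% ± 3.51 in LKO. Control 4, at 51.3%, was just below the lowest LKO library (51.8%). The share of pi was 22.8% ± 7.91 in controls (35.3% in control 1) and 10.3% ± 1.6 in LKO, with no overlap. In CPM the pi class did overlap, with 323.6 in control 5 against 367.1 in LKO 1. Shares of a total are tied to each other, so a higher mu sum by itself lowers the other shares. They are shares of counts, without regard to transcript length. The alpha share was 35.7% ± 5.11 and 31.2% ± 3.44, and that of theta 3.83% ± 0.933 and 3.2% ± 0.398, both overlapping. The shares depend on which rows are counted. With Gstp2, Gstp-ps, Gm3776 and Gm10639 added to their classes, pi held 40.2% ± 10.5 in controls and 20.8% ± 2.99 in LKO, and mu 29.1% ± 8.75 and 47.9% ± 2.72, neither overlapping. The log2 ratio of the pi sum was then -0.90, beside -0.89 for Gstp1 by itself. If a read was counted for each copy it matches, the values with copies count it more than once. All shares and sums given here are descriptions and were not tested.

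**Figure D4:**
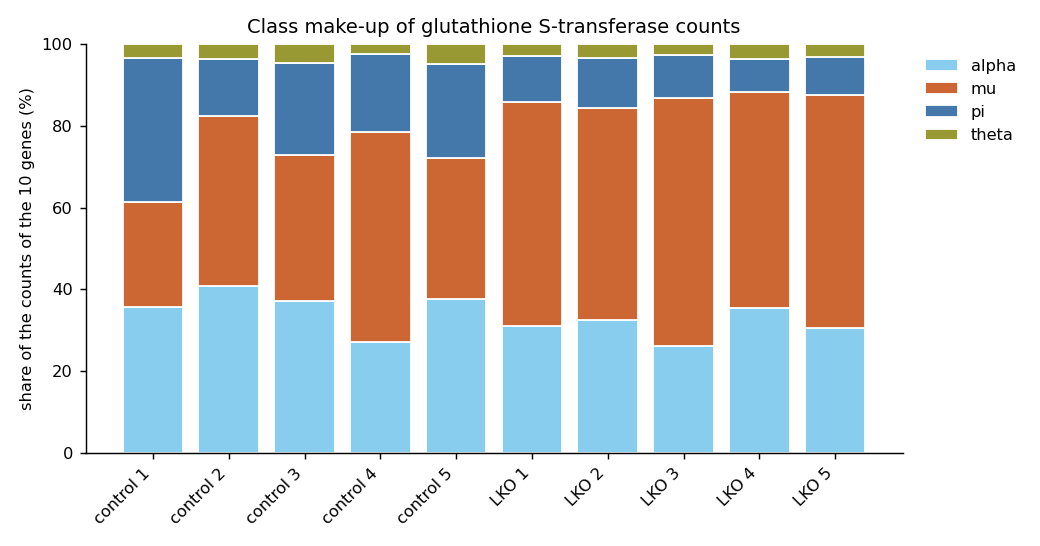
Share of the counts of the 10 genes (vertical axis, percent) held by each class in each library. The mu share is 51.8% to 60.6% in the LKO libraries and 25.6% to 51.3% in controls, and the pi share is 7.97% to 12.2% and 13.9% to 35.3%.

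Of 21 further genes of the cytosolic, mitochondrial and membrane-bound transferase families, 20 were found and 15 tested, and 0 passed over all genes (edgeR adjusted p under 0.05; 4 had an unadjusted p under 0.05 with a higher level and 1 with a lower one, against 12.8% and 9.5% of all genes). Their median log2 fold change was 0.01. Mgst3, a membrane-bound glutathione transferase and peroxidase, had 6.15 ± 2.5 and 12.3 ± 2.4 CPM (2.0-fold, edgeR adjusted p = 0.0977), and control 4 (10.2 CPM) overlapped the LKO range. Without control 4 it passed (edgeR adjusted p = 0.00519), and 3 of the 15 did in all, each higher, against 10.2% of all genes. Alox5ap, which presents arachidonate for leukotriene synthesis and is made by myeloid cells, had 0.268 ± 0.146 and 0.738 ± 0.27 CPM (log2 fold change 1.45, edgeR adjusted p = 0.118). Its groups did not overlap, 1 of the 15 genes here against 1.72% of all genes. Its raw counts were low, from 2 to 13 in controls and 17 to 45 in LKO. Alox5ap passed without control 4 (edgeR adjusted p = 0.0323) and with DESeq2 (adjusted p = 0.0278). Of the abundant transferases, Mgst1 had 1468 ± 294 and 1327 ± 351 CPM and Gstz1, of tyrosine breakdown, 529 ± 127 and 416 ± 106 CPM (edgeR adjusted p = 0.717 and 0.369). Gstk1, the mitochondrial and peroxisomal kappa transferase, had 78.8 ± 19.2 and 56.4 ± 16.5 CPM (edgeR adjusted p = 0.247).

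Genes that make, recycle or break down glutathione had a median log2 fold change of 0.05, and 0 of 20 tested passed (edgeR adjusted p under 0.05; 7 had an unadjusted p under 0.05, 4 higher and 3 lower, against 12.8% and 9.5% of all genes). Those with the smallest p were Ggct, which releases oxoproline (0.45), Cbs, of cysteine synthesis (-0.57), the cystine carrier gene Slc7a11 (1.47) and Chac2, which degrades glutathione (-0.46), with edgeR adjusted p from 0.101 to 0.157. These 4 passed without control 4 (edgeR adjusted p from 0.00795 to 0.0374), and the other 16 did not. Of the 4, 2 were higher and 2 lower, against 10.2% and 4.75% of all genes in that fit. The rate-limiting enzyme genes of glutathione synthesis, Gclc and Gclm, stood at -0.04 and -0.11 (edgeR adjusted p = 0.888 and 0.445). Of 8 genes of conjugate export, 0 passed (edgeR; 2 had an unadjusted p under 0.05, both higher, against 12.8% of all genes). Abcc4 had 4.82 ± 0.615 and 11.1 ± 4.48 CPM (log2 fold change 1.21, edgeR adjusted p = 0.0766). Its groups did not overlap, as for 1.72% of all genes in this direction. Abcc1 had a log2 fold change of 0.88 (edgeR adjusted p = 0.11). Without control 4, 3 of the 8 passed, all higher, against 10.2% of all genes. Among them were Abcc4 and Abcc1 (edgeR adjusted p = 0.0114 and 0.0156). Abcc2, the main canalicular exporter, had 628 ± 53.9 and 550.3 ± 136 CPM (edgeR adjusted p = 0.508).

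NRF2 targets outside the transferase family had a median log2 fold change of 0.39, with 20 of 24 higher. None passed (edgeR adjusted p under 0.05), and 14 of 24 had an unadjusted p under 0.05, all of them higher, against 12.8% of genes. The ranges of 5 were apart, all higher, against 1.72% of genes. The smallest p were those of Htatip2 (0.76), Abcc4 (1.21), the sulfiredoxin gene Srxn1 (0.85) and the carbonyl reductase gene Cbr1 (0.77), with edgeR adjusted p of 0.0521, 0.0766, 0.0921 and 0.094. Gclc (-0.04) and Gclm (-0.11) are among the 4 lower genes of this list. Abcc4 is also in the export list, and Slc7a11, Gclc and Gclm are also in the glutathione list. Without control 4, 10 of the 24 passed, all higher, against 10.2% of all genes in that fit. In the same fit 3 of the 10 transferases passed, namely Gsta1, Gsta4 and Gstm3, all higher. Cell type markers also passed in that fit, in larger shares for macrophage (18 of 21, higher) and stellate cell markers (11 of 14, higher).

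**Figure D5:**
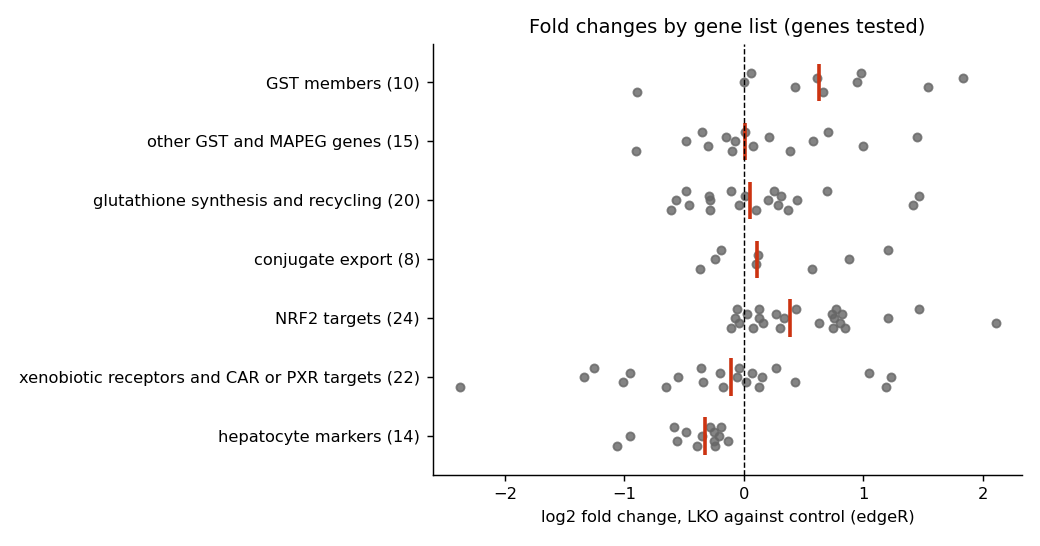
Log2 fold change (edgeR, horizontal axis) of each tested gene by list, with the list's median in red and the median of all genes as a dashed line; the number tested is in brackets. The medians are 0.63 for the 10 transferases, 0.39 for NRF2 targets, 0.01 for other transferases and -0.32 for hepatocyte markers.

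Levels of cell type markers also varied with the groups, with control 4 nearer to the LKO libraries for all but the endothelial list. In whole liver fewer cells of a type and less RNA per cell cannot be told apart. Hepatocyte markers were lower in LKO for 14 of 14 tested, 0 of them passing (edgeR; 6 with an unadjusted p under 0.05, against 9.5% of all genes). Total-count scaling moved the median of all genes from -0.00 to 0.24. With it 11 of the 14 hepatocyte markers were lower, and their median went from -0.32 to -0.07. They summed to 112700 to 123600 CPM in controls 1, 2, 3 and 5, 77020 in control 4 and 66790 to 94010 in LKO. Macrophage markers were higher for 19 of 21 and summed to 445 to 559 CPM in those 4 controls, 994 in control 4 and 679 to 1487 in LKO. Cholangiocyte markers (11 of 13 higher) summed to 100.4 to 262.8 CPM in controls and 128 to 510.2 CPM in LKO, stellate cell markers (14 of 14 higher) to 415 to 927 and 600.2 to 1350 CPM, and endothelial markers (14 of 14 higher) to 542 to 629 and 558 to 811 CPM. In these 4 lists 0 genes passed (edgeR adjusted p under 0.05), while 12, 7, 7 and 7 had an unadjusted p under 0.05, all higher, against 12.8% of all genes. Without control 4, 18 macrophage, 2 cholangiocyte, 11 stellate cell and 4 endothelial markers passed, all higher, against 10.2% of all genes, and 5 hepatocyte markers passed as lower, against 4.75%. In each of the 5 lists 0 markers lacked counts in all libraries. Spp1 is in both the macrophage and the cholangiocyte list, with 45.8 ± 55.4 CPM in controls and 122 ± 128 CPM in LKO. It makes up a large part of the cholangiocyte sums. The part of cell make-up in the transferase values was not tested.

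Each title holds a code (A54, A55 or A67) of unstated meaning, and A54 alone occurs in both groups. Among the A54 libraries, Gstm3 had 25.6 CPM in control 1 against 243.7 and 218.3 CPM in LKO 1 and LKO 2, Gstm1 659.9 against 1434 and 1155 CPM, and Gstp1 1018 against 367 and 350.1 CPM. With the code as a covariate, 0 of the 10 genes and 0 of all genes passed (edgeR; adjusted p = 0.878 for Gstm3 and 0.203 for Gstp1). The log2 fold changes were then 3.17 for Gstm3, 2.17 for Gsta1 and -1.50 for Gstp1, each farther from 0 than without the covariate. Gstm1, Gstm2 and Gstm4 were also farther from 0 (0.97, 1.35 and 1.06). Gsta2 and Gstt1 were nearer to 0 (0.41 and 0.00), Gsta4 stayed at 0.43 and Gsta3 stood at -0.11. In that fit genotype is compared within A54 alone, where control 1 is the only control. Code and genotype cannot otherwise be told apart.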

How the data were processed

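The deposited table holds raw read counts per gene, as whole numbers, for 10 liver libraries, with genes given as NCBI Gene numbers. Per the labels' protocols, ribosomal RNA was removed, libraries were stranded and reads had 101 cycles from 1 end. Per the submitters' processing notes, bcl2fastq 2.20 and DESeq2 were used with GRCm39. Not given in the sources used here are the aligner, the counter, its strand setting and its handling of reads that match several genes. All 10 columns were matched by name and 0 were left unused. Symbols came from RefSeq (GRCm38.p6, names and neighbours only) for 25275 of 27179 genes. Lengths and windows came from GENCODE principal transcripts on GRCm38.

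Genotype was tested in R 4.3.3 with edgeR 4.0.16 (filterByExpr, TMM, quasi-likelihood F test with the legacy option, two-sided), with Benjamini-Hochberg adjustment over 15226 genes and a threshold of 0.05. Each SE is the log2 fold change divided by the square root of its F. The common coefficient of variation was 0.242. On simulated counts for LKO against control, the test recovered 57 of 99 genes with a 2-fold change and 90 of 97 with a 4-fold change among 15085 genes, with 6 false calls. No pair of libraries agreed within sampling noise (lowest chi-square per degree of freedom 32.1). Alternatives were other scalings and filters, DESeq2 1.42.0, limma 3.58.1 voom, a replicate block, the title code and leaving out each library. Figures used matplotlib 3.10.9.

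The genes and lists were chosen with earlier results of these data known. The rule for named genes took Lpcat3, the 10 genes, any tested relative and up to 4 genes of smallest p per list. Gclc, Gclm, Abcc2, Cyp2c29, Cyp3a13, Spp1, Gm3776, Gm10639 and Gstp-ps were added after their values were seen.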

Additional observations from a re-analysis of the deposited data

Results flagged for a closer look

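In groups of 5 libraries, a value was set apart when its gap to the nearest other library, divided by the group's range, exceeded 0.71. Of 64 groups tested, 10 had such a value, and chance gives about 1 in 20. Those of Gstp1, Gstp2 and Gstp-ps may rest on the same reads, as may those of Gsta1 and Gm3776. Control 1 was highest in Gstp1 (1018 CPM, next control 445 CPM), Gstp2 (878.9 against 385 CPM) and Gstp-ps (492 against 235 CPM). Control 4 was highest in Gsta1 (41.5 against 6.64 CPM), Gm3776 (41.4 against 6.6 CPM) and Hpgds, the prostaglandin D synthase gene (8.29 against 3.21 CPM). It was lowest in Gsto1 (31.4 against 52.6 CPM) and Gstk1 (44.8 against 84.8 CPM). LKO 2 was highest in Gstm5 (5.08 against 3.82 CPM), and LKO 3 was lowest in Gstt2 (23.5 against 43.1 CPM).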

How the results depend on the processing

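The genes called over all genes numbered 10. They were 31 with no filter, 20 with at least 1 CPM in 5 libraries, 1186 with DESeq2, 2460 with limma voom, 2 with the replicate block and 0 with the title code, and 2 to 2296 with 1 library left out (2296 without control 4). Of the 10 transferase genes, 3 were called by DESeq2, 6 by limma voom, 0 with the replicate block, and 0 to 3 with 1 library left out (3 without control 4, 0 without any other). The cause of these differences was not tested. Same-numbered libraries correlated from -0.40 to 0.42 in their deviations, and the labels do not say that numbers pair mice. Lpcat3 stood at -1.99 with the title code, no longer passing (edgeR adjusted p = 0.0565). The log2 fold change of Gsta3 turned to -0.00 with RLE size factors and with DESeq2, to -0.11 with the title code and to -0.12 in A54, and ran from -0.12 to 0.21 with 1 library left out. That of Gstt1 ran from -0.05 to 0.18. The other 8 genes kept their direction in all 20 fits. Total-count scaling shifted the median of all genes to 0.24, and list medians to 0.23 (other transferases), 0.30 (glutathione synthesis), 0.34 (export), 0.62 (NRF2 targets), 0.49 (endothelial), -0.07 (hepatocyte) and 0.12 (CAR and PXR, from -0.11). Gstp1, Gsta1 and in part Gsta2 depend on the handling of shared reads, which no alternative could change.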

Other observations

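Receptors that induce transferase genes, and the classical targets of CAR and PXR, were compared as well. Of 22 tested, 0 passed (edgeR adjusted p under 0.05; 8 had an unadjusted p under 0.05, 3 higher and 5 lower, against 12.8% and 9.5% of all genes). The median log2 fold change was -0.11, and 0.12 with total-count scaling, which moved the median of all genes from -0.00 to 0.24. Without control 4, 2 passed as higher (Cyp3a11 and Abcb1a, edgeR adjusted p = 0.0149 and 0.00709), against 10.2% of all genes. In that fit 2 passed as lower (Cyp2c29 and Cyp3a13, edgeR adjusted p = 0.0163 and 0.0267), against 4.75%. With all libraries Cyp2c29 and Cyp3a13 had log2 fold changes of -1.25 and -0.34. Cyp3a11, the main PXR-inducible cytochrome P450, averaged 1186 ± 374 CPM in controls and 2697 ± 532 CPM in LKO (log2 fold change 1.19, SE 0.26, edgeR adjusted p = 0.0862). Its groups did not overlap, as for 1.72% of all genes in this direction. Abcb1a, a drug efflux pump gene, had a log2 fold change of 1.05 and Cyp2c55 of 1.23, while Rxra stood at -0.36 (edgeR adjusted p = 0.141, 0.148 and 0.153). The genes of NRF2 (Nfe2l2) and of its inhibitor Keap1 stood at 0.15 and 0.13, and the PXR gene Nr1i2 at 0.07 (edgeR adjusted p = 0.515, 0.469 and 0.781). The CAR gene Nr1i3 stood at -0.65 (edgeR adjusted p = 0.399), and at -0.82 without control 4. Nfe2l2, Keap1, Nr1i2 and Nr1i3 were chosen after their values were seen.

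Zonal hepatocyte markers had negative medians on both sides of the lobule. Of 16 pericentral markers 14 were lower (median log2 fold change -0.37), and of 16 periportal markers 12 were lower (median -0.34). None passed (edgeR). Of the pericentral markers 3 had an unadjusted p under 0.05, all lower, and of the periportal markers 3, of which 2 were higher and 1 lower. Over all genes the shares were 12.8% higher and 9.5% lower. Lgr5, Cyp7a1 and Cyp1a2 stood at -0.40, -1.09 and -1.01, and Tbx3 at -0.60, with edgeR adjusted p from 0.157 to 0.259. Among periportal markers, Igfbp2 and Apoa4 stood at 0.68 and 1.64, and Pigr and Arg1 at -0.74 and -0.42, with edgeR adjusted p from 0.116 to 0.276. Without control 4, Apoa4 stood at 2.49 and passed, as did Pigr at -0.84 (edgeR adjusted p = 0.0084 and 0.042).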
